A study of Rattus norvegicus with 8 samples.

Results

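Lysosome and autophagy genes of the rat liver were examined as a list of 39 genes, 30 for proteins of the lysosome and 9 for autophagy factors. Each gene was represented by the probe set (the group of array probes designed for a transcript) with the highest mean among those annotated with that symbol alone and with at least 0.05 on the log2 scale between the lowest and the highest rat. A total of 16 of the 39 genes had such a probe set, 14 of the lysosomal genes and 2 of the autophagy factors, and these are called the measured members. The livers came from male Wistar rats with a labelled age of 8 weeks, which had been fed either a high phosphorus (HP) diet with 1.2% phosphorus or a control AIN-93G diet with 0.3% phosphorus for 24 days. There were 4 rats on the HP diet and 4 on the control diet, all separate animals, and the RNA of each liver was hybridised to 1 Affymetrix array. Because whole liver was used, fewer cells of a type and less RNA per cell cannot be told apart.

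The lysosome is the acidic compartment in which the cell breaks down proteins, glycans and lipids. A proton pump, the V-ATPase, acidifies it, and membrane proteins such as Lamp1 and Lamp2 line it. In autophagy, part of the cytoplasm is enclosed by a membrane and delivered to the lysosome, a process by which the liver recycles protein, lipid droplets and organelles during fasting. Many lysosomal genes are switched on together by the transcription factor Tfeb and its relatives, which bind the E-box letters CACGTG in their promoters and are held in the cytoplasm by mTORC1 when amino acids are plentiful.

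The differences between the diets were small, and the share of measured members called was near that of the array. In rats fed the HP diet, Lamp2 was higher by 0.19 (log2), and Atp6v1a, a catalytic subunit of the proton pump, and Psap, the precursor of the saposins that help lipid hydrolases, were lower by 0.23 and 0.22. These were the 3 measured members called by rank products, the rank-based test used in the study's methods, at a false discovery rate (FDR) below 0.05. The test was made for each direction separately, over all 31042 probe sets. All 3 calls were lost when the ranking was limited to the 4155 probe sets with a span of 0.05 or more, at an FDR of 0.750 for Lamp2, 0.701 for Atp6v1a and 0.706 for Psap. Every other call named below was lost under that ranking too, so that the loss was not particular to these 3 genes. How many probe sets of the whole array were called under it is not given here. Among the 14 measured lysosomal members, 1 was called higher and 2 lower, against 8.5% called higher and 12.1% called lower among those 4155 probe sets. None of the 2 measured autophagy members was called in either direction.

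A linear model fitted over those 4155 probe sets with limma called 0 members at an adjusted p below 0.05, as it called 0% of all probe sets. The smallest adjusted p of any probe set was 0.156. At an unadjusted limma p below 0.05, 2 lysosomal members were higher (Lamp2 and Ctsl) and 2 lower (Atp6v1a and Psap), and 1 autophagy member was lower (Sqstm1). The shares of all 4155 probe sets were 5.37% higher and 7.29% lower. In 1 member (Lamp2) the lowest HP rat was above the highest control rat, and in 1 (Atp6v1a) the highest HP rat was below the lowest control rat, against 3.1% and 4.07% of all probe sets. Counts of 0 to 2 among 14 and 2 genes are too few to be told apart from those shares.

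The lysosomal members had a median difference between HP and control of 0.01 (log2), with a range of -0.23 to 0.22, and the 2 autophagy members a median of -0.03, or 0.05 when the spanning probe sets of each gene were averaged. Over all 4155 probe sets the median was -0.02. The difference was above 0 in 8 of the 14 lysosomal members and below 0 in 6, and it was smaller than 0.1 in either direction in 9 of the 14. The median size of the difference was 0.07 in the lysosomal members and 0.09 over all probe sets. The plot of the measured members in each rat shows how far the values of the diets overlapped.

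**Figure D1:**
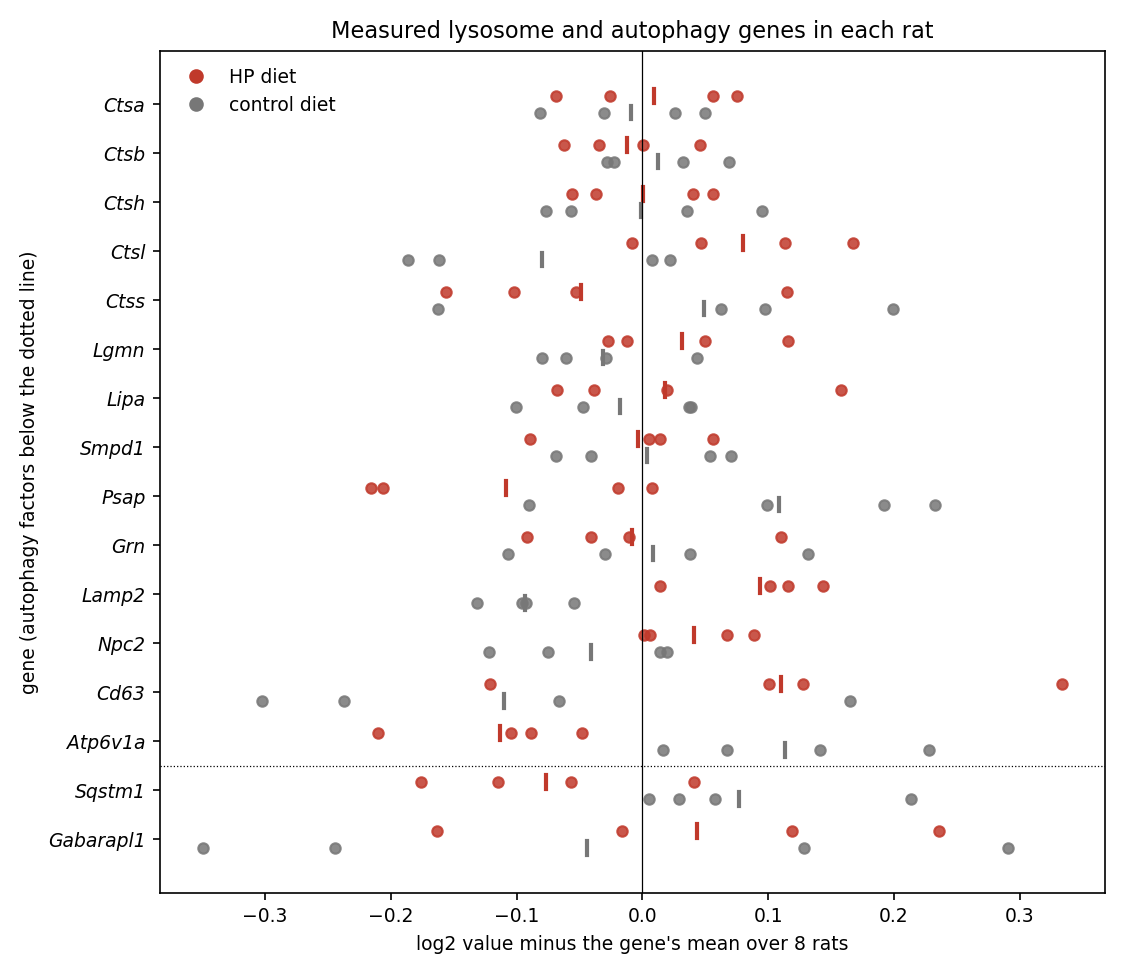
Log2 value of the 16 measured members in each rat, relative to the mean of the gene over the 8 rats (x axis), with HP diet-fed rats in red above control rats in grey and short bars at the mean of each diet. The diets are apart at Lamp2 and Atp6v1a, and overlap at the other 14 genes.

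The other members were not compared between the diets. For 21 of them every probe set named with that symbol alone was nearly constant, with less than 0.05 between the lowest and the highest rat, and for 2 of them, Npc1 and Map1lc3b, no probe set carried that symbol alone, so that they were not analysed here. The authors summarised probes with FARMS, a factor model that draws a probe set towards a constant value where its probes do not vary together, so that a constant value does not show that the RNA was equal in the diets. A measured probe set was found for 43.2% of the 37 named members, against 19.8% of the 14217 genes named on the array. The nearly constant members had levels of 7.03 to 12.19 (log2). All 5 glycosidases (Gaa, Gla, Glb1, Hexa and Neu1), which remove sugars from glycogen, glycolipids and glycoproteins, were among them, and so were the proteases Ctsd, Ctsz and Tpp1, the lipid enzymes Asah1 and Ppt1, the membrane proteins Lamp1 and Scarb2, the proton pump subunits Atp6ap1 and Atp6v0d1, and 6 of the 8 named autophagy factors (Becn1, Atg5, Atg7, Atg12, Ulk1 and Wipi1). The threshold divided the members with a wide gap on its upper side. The member just outside it was Ctsc, a protease that activates other proteases, with a span of 0.0495, and the one just inside was Ctsb with 0.131.

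**Figure D2:**
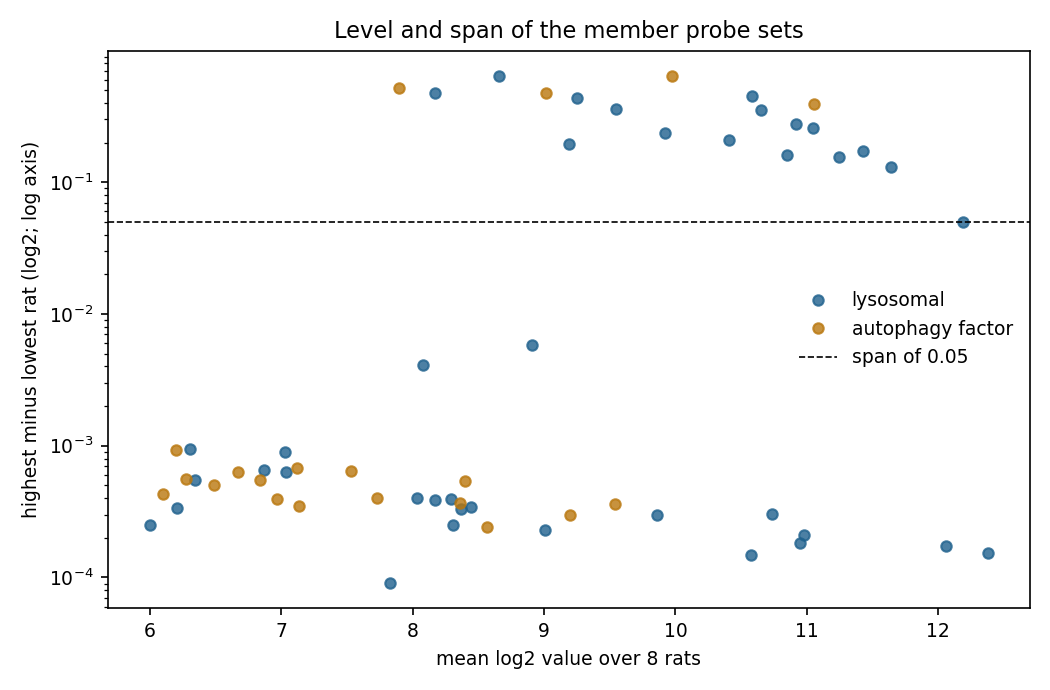
Mean log2 value over the 8 rats (x axis) and span, the highest minus the lowest rat on a log axis (y axis), of the 60 member probe sets, with lysosomal genes in blue and autophagy factors in ochre. A total of 19 probe sets lie above the dashed line at 0.05, and most of the others span less than 0.001.

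The promoters of the members were read from RefSeq (build GRCr8; from 250 bases before to 50 bases after the gene start), where 33 of the 39 members matched by symbol. The letters CACGTG, which read the same on both strands, were found in 7 of the 33 promoters (21.2%), namely Atg5, Atp6v0d1, Cd63, Ctsd, Gaa, Glb1 and Lamp1, and in 6.42% of the 33469 promoters of the annotation. The longer GTCACGTG on either strand, which contains CACGTG, was found in 5 members (15.2%), against 1.85% of all promoters. The palindrome TCACGTGA, which also contains it, was found in 3 members (9.09%; Atp6v0d1, Ctsd and Lamp1), against 0.777% of all promoters. TCATGTGA on either strand, another E-box, which does not contain CACGTG, was found in 5 members (15.2%), namely Atp6v1a, Cd63, Ctss, Grn and Tpp1, against 1.16% of all promoters. Of the 7 genes with CACGTG, 6 were among the 17 nearly constant members with a promoter entry. The other, Cd63, was 1 of the 14 measured ones. TCATGTGA was split the other way, with 4 of the 14 measured and 1 of the 17 nearly constant members. Because a nearly constant value does not show equal RNA, these counts do not tie the letters to expression. The shares of all promoters count every entry of the annotation, which was not matched to the members in type of gene or in level. A match describes letters and not a bound site.

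The 250 bases before the start of the pair of LAMP genes are shown because their genes differ both in these letters and in what the array could measure. Lamp1 lies at chr16:83075064-83075313 and Lamp2 at chrX:122087674-122087923, both on the minus strand. Capitals mark CACGTG, GTCACGTG, TCACGTGA and TCATGTGA on either strand. Lamp1, nearly constant on the array, holds CACGTG at 5 places, and Lamp2 holds none of these letters in this window. Lamp2 was called higher at 1 probe set and was nearly constant at its brighter one.
Lamp1: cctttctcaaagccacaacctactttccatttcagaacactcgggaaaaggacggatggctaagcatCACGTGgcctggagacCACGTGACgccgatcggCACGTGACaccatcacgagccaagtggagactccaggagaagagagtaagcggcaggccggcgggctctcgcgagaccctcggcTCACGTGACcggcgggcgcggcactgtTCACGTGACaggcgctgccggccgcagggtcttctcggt
Lamp2: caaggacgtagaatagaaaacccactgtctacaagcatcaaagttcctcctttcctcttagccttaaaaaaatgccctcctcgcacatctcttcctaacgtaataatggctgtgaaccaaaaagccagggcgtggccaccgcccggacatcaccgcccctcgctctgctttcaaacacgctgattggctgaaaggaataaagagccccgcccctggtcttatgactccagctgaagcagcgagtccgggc

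Stretches of 40 bases around the leading match are shown for the other members that the text turns on, with the same capitals. Ctsd (chr1:206968956-206968995, minus strand), Glb1 (chr8:122963601-122963640, plus strand), Gaa (chr10:105028271-105028310, plus strand) and Atp6v0d1 (chr19:50357278-50357317, minus strand) were nearly constant on the array, and Cd63 (chr7:1921937-1921976, plus strand) and Atp6v1a (chr11:70067463-70067502, plus strand) were measured.
Ctsd: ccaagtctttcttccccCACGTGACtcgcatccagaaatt
Glb1: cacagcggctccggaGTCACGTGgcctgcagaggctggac
Gaa: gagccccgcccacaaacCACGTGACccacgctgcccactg
Atp6v0d1: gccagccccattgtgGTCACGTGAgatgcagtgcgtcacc
Cd63: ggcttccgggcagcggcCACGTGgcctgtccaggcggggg
Atp6v1a: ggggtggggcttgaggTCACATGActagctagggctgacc

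Among the lysosomal proteases, 6 of the 10 were measured, and none was called by rank products in either direction. Their differences ran from -0.10 (Ctss) to 0.16 (Ctsl), with a median of 0.01. Ctsl, cathepsin L, an endopeptidase, had log2 values of 10.69, 10.76, 10.81 and 10.64 in HP rats, and 10.66, 10.67, 10.46 and 10.49 in control rats. Control rats 3 and 4 were the lowest, and control rats 1 and 2 lay above HP rat 4, so that the diets overlapped. The difference was 0.16 (SE 0.07, 95% interval 0.01 to 0.31), with a limma p of 0.0390 and an adjusted p of 0.380, and the rank products FDR for higher was 0.0651. The other Ctsl probe set was nearly constant at 12.38. Leaving out control rat 1 or control rat 2 gave a Ctsl FDR of 0.0346 and 0.0425. Without HP rats 1, 2, 3 and 4 it was 0.181, 0.230, 0.253 and 0.0979, and without control rats 3 and 4 it was 0.133 and 0.103.

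The other proteases differed by less. Cathepsin B (Ctsb), cathepsin H (Ctsh) and cathepsin A (Ctsa), the last a carboxypeptidase that also protects other lysosomal enzymes, had differences of -0.03, 0.00 and 0.02 (log2). Their 95% intervals lay within -0.12 and 0.13. Lgmn, legumain, which cuts after asparagine, had a difference of 0.06 (SE 0.06). Ctss, cathepsin S, a protease of antigen-presenting cells, had log2 values of 9.45, 9.66, 9.50 and 9.39 in HP rats and 9.75, 9.61, 9.39 and 9.65 in control rats, a difference of -0.10 (SE 0.09).

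Of the lipid hydrolases and activators, 4 of 6 were measured, and Psap was called lower. Psap had log2 values of 10.59, 10.56, 10.37 and 10.36 in HP rats, and 10.81, 10.68, 10.49 and 10.77 in control rats. Control rats 1, 2 and 4 lay above every HP rat, while control rat 3 lay below HP rats 1 and 2. Psap was 10.47 ± 0.12 in HP rats and 10.69 ± 0.14 in control rats (SD, n = 4 each), a difference of -0.22 (SE 0.08, 95% interval -0.41 to -0.02) or 0.860 of the control level. The rank products FDR for lower was 0.0358, and the limma p was 0.0314 (adjusted p = 0.368). The call rested on most of the rats: the FDR was 0.0685 without HP rat 3, 0.0608 without HP rat 4, and 0.138, 0.137, 0.0730 and 0.145 without control rats 1, 2, 3 and 4. It was kept without HP rat 1 or HP rat 2.

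The 3 other lipid members had differences near 0. Lipa, the acid lipase that frees cholesterol and fatty acids from lipoproteins, had a difference of 0.04 (SE 0.06). Smpd1, acid sphingomyelinase, had -0.01 (SE 0.05), and Grn, the progranulin precursor that is delivered to lysosomes, had -0.02 (SE 0.07). Among the membrane and cholesterol export genes, 3 of 6 were measured and all 3 differences were above 0, with Lamp2 the only call.

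Lamp2 encodes, among its isoforms, the membrane protein by which chaperone-mediated autophagy takes up its substrates. It had log2 values of 11.03, 11.02, 10.93 and 11.06 in HP rats, and 10.82, 10.78, 10.82 and 10.86 in control rats. The lowest HP rat, rat 3, lay above the highest control rat, rat 4. The means were 11.01 ± 0.06 in HP rats and 10.82 ± 0.03 in control rats (SD, n = 4 each), a difference of 0.19 (SE 0.04, 95% interval 0.09 to 0.29) or 1.14-fold. The rank products FDR for higher was 0.0235, and the limma p was 0.00208 (adjusted p = 0.217). The other Lamp2 probe set was nearly constant at 12.06, so that the difference was seen at 1 of its probe sets. Without HP rat 1, 2, 3 or 4 the FDR was 0.0968, 0.107, 0.0839 and 0.101, and it stayed below 0.05 when any control rat was left out.

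Cd63, a tetraspanin of late endosomes and lysosomes, had the largest difference above 0 of the measured members and the widest span of the lysosomal ones. Its log2 values were 8.78, 8.99, 8.76 and 8.54 in HP rats, and 8.82, 8.42, 8.35 and 8.59 in control rats. Control rat 1 lay above 3 of the HP rats, and HP rat 4 lay below control rat 4. The difference was 0.22 (SE 0.12, 95% interval -0.06 to 0.50), with an FDR for higher of 0.0582 and a limma p of 0.111 (adjusted p = 0.470). Leaving out each rat in turn gave differences of 0.15 (without HP rat 2, FDR 0.361) to 0.31 (without control rat 1, FDR 0.00874), and the FDR was above 0.05 in the other omissions. Npc2, which hands cholesterol from the lysosomal lumen to the export protein Npc1, had a difference of 0.08 (SE 0.05).

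Of the proton pump members, only Atp6v1a was measured, and it was called lower at both of its spanning probe sets. At the brighter probe set the log2 values were 9.14, 9.20, 9.04 and 9.16 in HP rats, and 9.32, 9.26, 9.48 and 9.39 in control rats. Every HP rat lay below every control rat. The difference was -0.23 (SE 0.06, 95% interval -0.37 to -0.08), 0.855 of the control level, with an FDR for lower of 0.0218 and a limma p of 0.00682 (adjusted p = 0.278). The call was lost without control rat 1, 2, 3 or 4, at an FDR of 0.0578, 0.0765, 0.110 and 0.0833, and kept without any HP rat.

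The other Atp6v1a probe set had log2 values of 8.17, 7.92, 8.00 and 7.99 in HP rats, and 8.15, 8.38, 8.40 and 8.35 in control rats. Here HP rat 1 lay above control rat 1, and the other HP rats lay below all control rats. The difference was -0.30 (SE 0.08), with an FDR for lower of 0.0157 and a limma p of 0.00631 (adjusted p = 0.269). The FDR was 0.0871, 0.102 and 0.0684 without control rats 2, 3 and 4. Both probe sets of this gene pointed the same way, but they read the same 8 RNA samples and are not separate evidence.

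**Figure D3:**
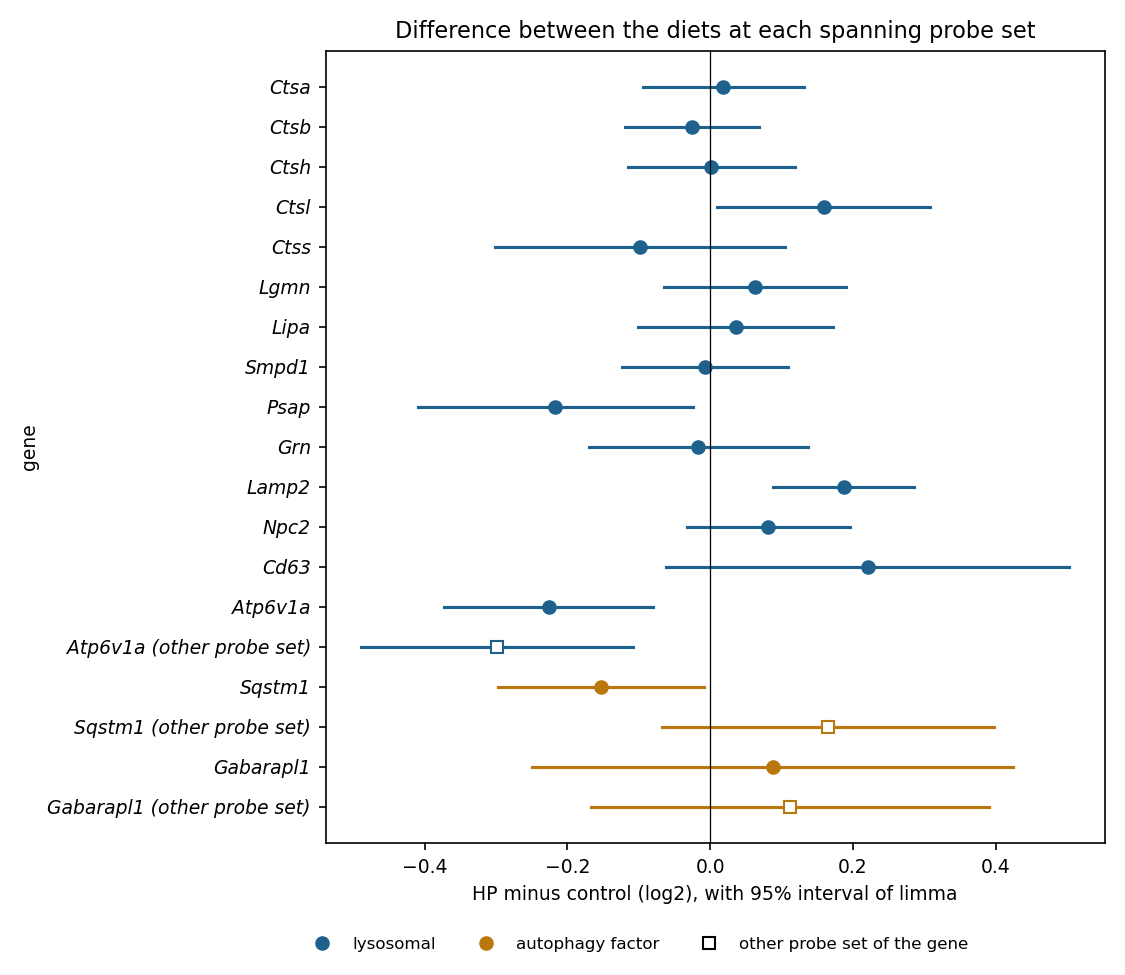
Difference between HP and control rats on the log2 scale with the 95% interval of limma (x axis) at the 19 spanning member probe sets, in order of role, with lysosomal genes in blue, autophagy factors in ochre and further probe sets of a gene as open squares. The intervals of Lamp2, Ctsl, Psap, Sqstm1 at its brighter probe set, and Atp6v1a at both probe sets lie clear of 0.

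Only 2 of the 9 autophagy factors were measured. Sqstm1 (p62) is the receptor that carries ubiquitinated cargo into autophagosomes and is itself degraded there. At its brighter probe set the log2 values were 10.88, 10.94, 11.10 and 11.00 in HP rats, and 11.06, 11.11, 11.27 and 11.08 in control rats. The highest HP rat, rat 3, lay above control rats 1 and 4, and the other HP rats lay below all control rats. The difference was -0.15 (SE 0.06, 95% interval -0.30 to -0.01), with an FDR for lower of 0.0776 and a limma p of 0.0406 (adjusted p = 0.384).

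At the other spanning Sqstm1 probe set the values were 9.16, 9.06, 9.11 and 9.07 in HP rats, and 8.98, 8.75, 8.78 and 9.23 in control rats. Here 3 of the 4 control rats lay below all HP rats and control rat 4 above them. The difference was 0.16 (SE 0.10), with an FDR for higher of 0.0811 and a limma p of 0.143. The difference between the probe sets in their response to the diet was -0.32, which an exact permutation test over the 70 divisions of the 8 rats into 4 and 4 gave p = 0.114 (two-sided, n = 4 each; the smallest p this design allows is 0.0286). This test was chosen after the values had been seen and was made for the 3 genes with more than 1 spanning probe set, with an adjusted p of 0.343 for Sqstm1. A further 2 Sqstm1 probe sets were nearly constant, at 6.20 and 6.28, and the direction of Sqstm1 is therefore given for each probe set and not for the gene.

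Gabarapl1 belongs to the family of ubiquitin-like proteins that are joined to the autophagosome membrane. Its log2 values were 10.21, 9.96, 10.09 and 9.81 in HP rats, and 10.26, 10.10, 9.73 and 9.62 in control rats. The difference of 0.09 (SE 0.15, 95% interval -0.25 to 0.42) was smaller than the spread within either diet, 0.17 in HP and 0.30 in control rats (SD, n = 4 each). The other spanning probe set had a difference of 0.11 (SE 0.12), and ordered the rats alike, with rat 1 of each diet the highest of its diet and rat 4 the lowest.

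**Figure D4:**
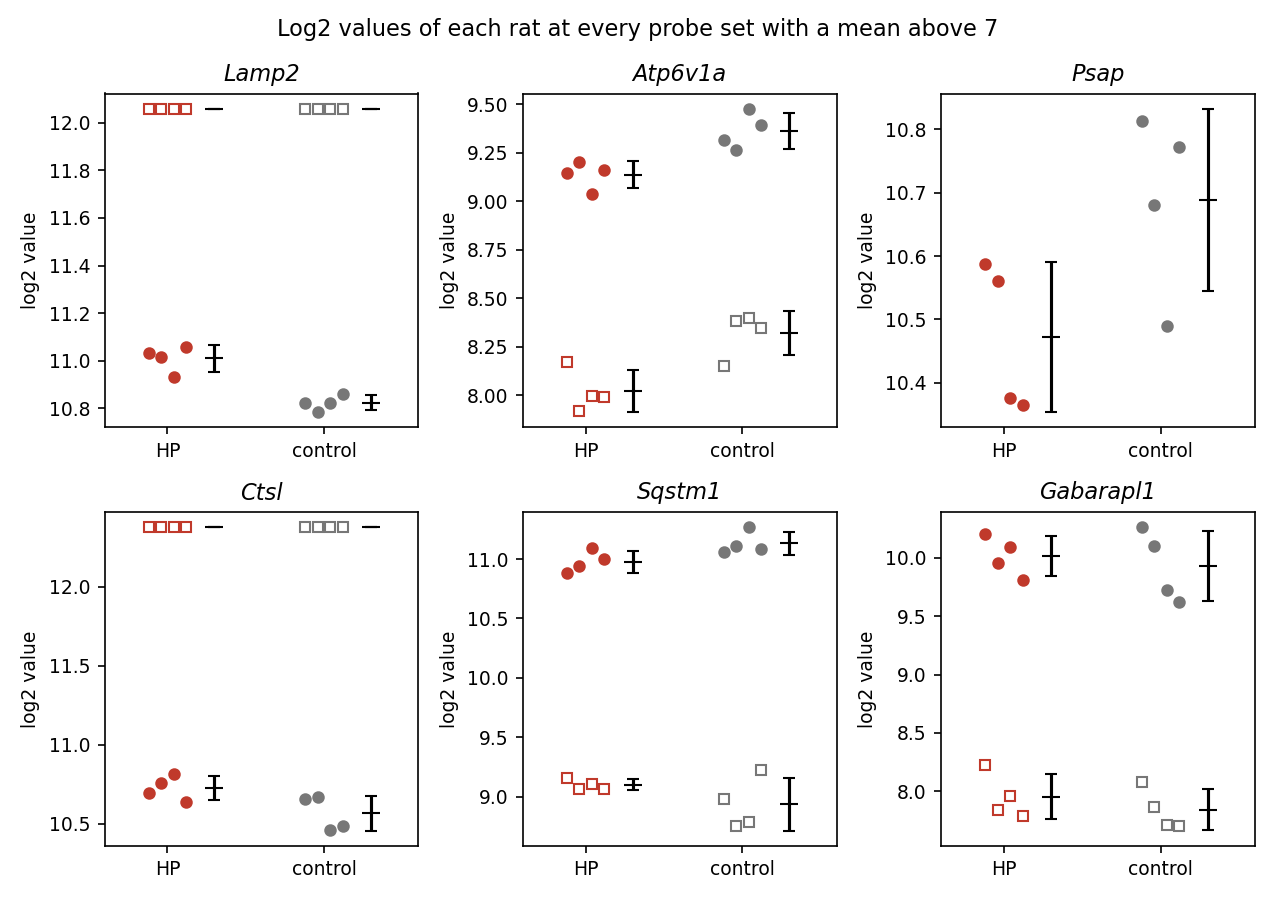
Log2 values (y axes) of Lamp2, Atp6v1a, Psap, Ctsl, Sqstm1 and Gabarapl1 in each HP rat (red, left) and control rat (grey, right), rats 1 to 4 from left to right in each diet, with filled circles for the probe set that represents the gene, open squares for its other probe sets with a mean above 7, and black bars for the mean ± SD. The open squares of Lamp2 and Ctsl are flat, both Atp6v1a probe sets are lower in HP rats, and the Sqstm1 probe sets point in opposite directions.

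Other genes of the lysosome were read from wider lists. Over the 4155 spanning probe sets, 8.5% were called higher by rank products and 12.1% lower. Counts of 0 to 2 in such short lists are too few to be told apart from those shares. Among 36 other lysosomal hydrolases, 9 were measured, 2 were called higher by rank products and 0 lower, with a median difference of 0.03. Pla2g15, the lysosomal phospholipase A2, had log2 values of 8.74, 8.82, 8.64 and 8.59 in HP rats, and 8.92, 8.24, 8.07 and 8.39 in control rats. Control rat 1 lay above all HP rats and the other control rats below them. The difference was 0.29 (SE 0.16), with an FDR for higher of 0.0235 and a limma p of 0.109. Plbd2, a lysosomal protein of the phospholipase B family, had values of 9.46, 9.78, 9.68 and 9.66 in HP rats, and 9.41, 9.57, 9.47 and 9.38 in control rats, a difference of 0.19 (SE 0.08) with an FDR for higher of 0.0418 and a limma p of 0.0381. Only HP rat 1 fell among the control rats.

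The wider lists of acidification and delivery genes gave no calls. Of 15 other proton pump subunits 6 were measured, with differences of -0.15 to 0.07 and a median of -0.07, and 0 were called in either direction by rank products or at an unadjusted limma p below 0.05. Atp6v1b2, which forms the catalytic head together with Atp6v1a, had a difference of -0.15 (SE 0.07) with a limma p of 0.0679. Of 21 genes that sort enzymes to the lysosome, such as the mannose 6-phosphate receptors M6pr and Igf2r, 5 were measured, with a median of -0.06 and 0 calls by either test. Of 30 other lysosomal membrane proteins, only Sidt2 and Vamp7 were measured, with differences of 0.07 (SE 0.05) and -0.08 (SE 0.07), and 0 calls.

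Among 61 other autophagy genes, 15 were measured, with a median difference of -0.02. Rank products called 1 higher and 1 lower, against 8.5% and 12.1% of the 4155 spanning probe sets. Retreg1, the receptor by which pieces of endoplasmic reticulum enter autophagosomes, had log2 values of 10.24, 10.58, 10.67 and 10.19 in HP rats, and 10.92, 10.85, 10.55 and 11.05 in control rats. Control rats 1, 2 and 4 lay above all HP rats, and control rat 3 lay between them. The difference was -0.42 (SE 0.14), 0.748 of the control level, with an FDR for lower of 0.00714 and a limma p of 0.0132 (adjusted p = 0.322). Tax1bp1, an autophagy receptor of the same class as Sqstm1, had a difference of -0.15 (SE 0.06), with a limma p of 0.0306 and an FDR for lower of 0.0568, so that it was past the unadjusted limma threshold but not called by rank products.

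Depp1, a FoxO target that acts on autophagy, had log2 values of 9.84, 10.47, 9.40 and 10.11 in HP rats, and 9.26, 9.96, 9.85 and 8.93 in control rats. HP rats 1 and 3 lay below control rats 2 and 3, and the spread was wide in both diets. The difference was 0.46 (SE 0.27) with an FDR for higher of 0.00413, whereas the limma p was 0.132 (adjusted p = 0.494). Without HP rat 2 the FDR was 0.108.

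Of 37 genes that govern lysosomal genes and autophagy, 13 were measured, with a median of 0.03. In each direction 1 was called, against 8.5% higher and 12.1% lower among the 4155 spanning probe sets. Prkab1, a regulatory subunit of the energy sensor AMPK, had values of 9.64, 9.42, 9.27 and 9.41 in HP rats and 9.36, 8.97, 9.01 and 9.52 in control rats, a difference of 0.22 (SE 0.13) with an FDR for higher of 0.0485 and a limma p of 0.138. Control rat 4 lay above 3 of the HP rats. Foxo1, a transcription factor that insulin keeps out of the nucleus, had values of 7.69, 7.69, 7.95 and 7.62 in HP rats and 7.89, 8.08, 8.10 and 7.80 in control rats. HP rat 3 lay above control rats 1 and 4, and the other HP rats lay below all control rats. The difference of Foxo1 was -0.23 (SE 0.10), with an FDR for lower of 0.0344 and a limma p of 0.0533. No measured probe set was found for Tfeb or Tfe3, which control lysosomal genes, so that they were not compared. All 6 rank products calls in these wider lists were lost when only the spanning probe sets were ranked, with FDR values of 0.124 (Depp1) to 0.720 (Plbd2). Leaving out single rats also ended them: each was lost without at least 1 rat, at FDR values of up to 0.294 (Prkab1, without HP rat 1), and Retreg1 only without control rat 2 or 4, at 0.0536 and 0.0595.

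**Figure D5:**
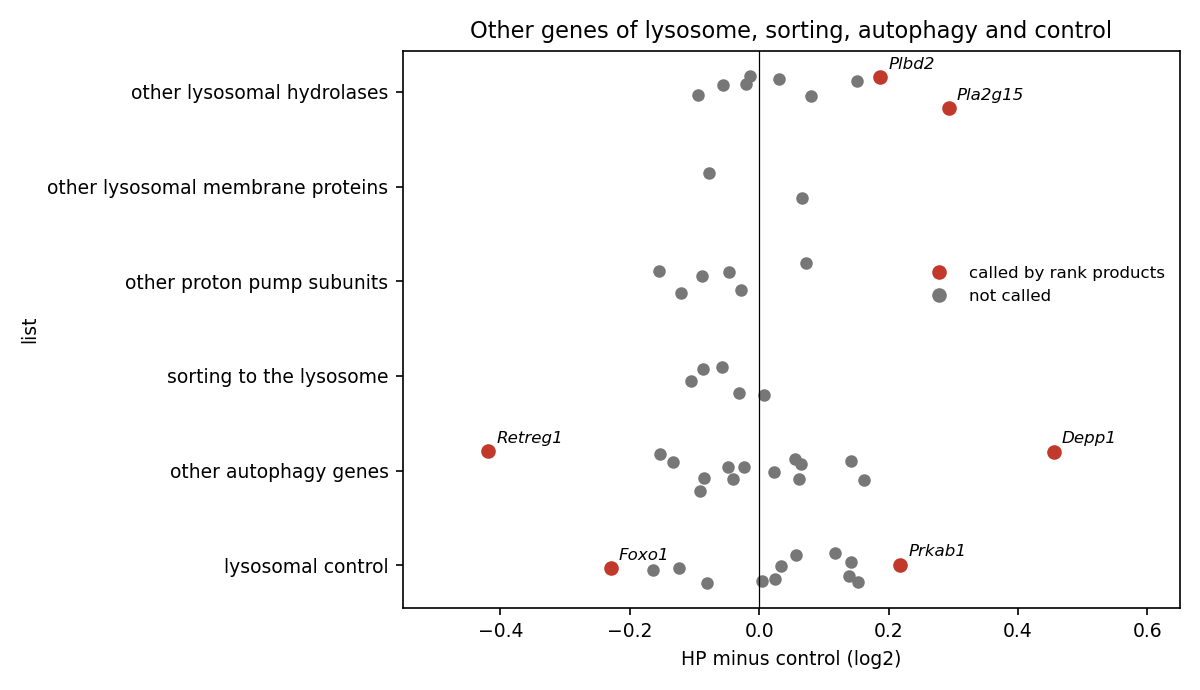
Difference between HP and control rats on the log2 scale (x axis) of the measured genes in the 6 wider lists (y axis, points spread vertically for legibility), in red with the symbol where called by rank products and in grey otherwise. The called genes are Plbd2 and Pla2g15, Retreg1 and Depp1, and Foxo1 and Prkab1, and the proton pump, sorting and other membrane lists have none.

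Cell type markers were read beside these genes, because lysosomal genes are expressed strongly in Kupffer cells. Hepatocyte markers showed the tissue to be liver, with Apoa1, Fgb and Cyp2e1 at means above 13 in HP rats and differences of 0.02, 0.00 and 0.02. Cps1, the entry enzyme of the urea cycle, was called lower, with a difference of -0.27 (SE 0.06) and an FDR for lower of 0.0175. Hnf4a had a difference of -0.10 (SE 0.10) at its brightest spanning probe set and was not called. The study lists Hnf4a as up-regulated, and its text does not name the probe set. Of 25 Kupffer cell and macrophage markers 15 were measured, with a median difference of -0.05. Rank products called 1 lower, against 12.1% of all spanning probe sets. It was Cd5l, with a difference of -0.33 (SE 0.09, FDR for lower 0.009, limma adjusted p = 0.245). Cd14, Mrc1 and Fcgr2b had differences above 0, of 0.07, 0.08 and 0.14. The other measured markers had differences below 0, up to -0.03 (Fcer1g). Summed on the linear scale, the measured markers ranged from 8576 to 9222 in HP rats and from 8487 to 10357 in control rats. The array gives no zero, and Clec4f, a marker of rat Kupffer cells, was well measured, with 10.34 ± 0.06 in HP rats and 10.38 ± 0.21 in control rats (SD, n = 4 each). Their part in the difference of Psap and of Ctss was not tested.

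The mean of the lysosomal members relative to the mean over all rats was 0.00, 0.06, -0.03 and -0.00 in HP rats and 0.06, -0.00, -0.07 and -0.01 in control rats. That of the Kupffer cell markers was -0.01, 0.04, -0.03 and -0.13 in HP rats and 0.21, -0.02, -0.13 and 0.07 in control rats. Control rat 3 was the lowest and control rat 1 the highest of its diet in both. Of 14 sinusoidal endothelial markers 4 were measured. Rank products called 2 of them higher, Kdr with 0.26 (SE 0.06) and Stab2 with 0.23 (SE 0.07), against 8.5% of all spanning probe sets. Lyve1, with 0.08 (SE 0.09), and Fcgr2b, with 0.14 (SE 0.09) and also a Kupffer cell marker here, were not called. The summed level of the 4 markers ranged from 3295 to 3676 in HP rats and from 2960 to 3331 in control rats. With a small overlap, it was higher in HP rats like Lamp2. Its part in the difference of Lamp2 was not tested. Of 12 stellate cell and fibroblast markers 7 were measured and 0 were called, and the bile duct, neutrophil and lymphocyte lists had 0 measured markers.

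Of 7 red cell markers only Hbb, a beta globin, was measured, and it was called higher. Its log2 values were 11.61, 11.44, 11.39 and 11.38 in HP rats, and 11.10, 11.64, 11.08 and 11.04 in control rats. Control rat 2 lay above every HP rat and the other control rats below them. The difference was 0.24 (SE 0.13), with an FDR for higher of 0.0297 and a limma p of 0.0974 (adjusted p = 0.454), and its part in the difference of Lamp2 was not tested.

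The marker calls also changed on leaving out single rats and with the ranking. The highest FDR on leaving out a rat was 0.0742 for Kdr and 0.119 for Stab2, both without HP rat 3, 0.0649 for Cd5l without control rat 2, 0.0926 for Cps1 without control rat 3, and 0.142 for Hbb without HP rat 1. All 5 calls were lost when the ranking was limited to spanning probe sets, at FDR values of 0.498 (Cd5l) to 0.651 (Cps1).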

How the data were processed

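The values deposited by the authors were log2 expression levels, made by summarising probes with FARMS in R 2.13.1 (version from the submitters' processing notes). How arrays were normalized against each other is not stated in any source read, and none was added. Every array had a median of 6.65, arrays correlated with an r of 0.968 to 0.992, and 13.4% of the 31042 probe sets spanned at least 0.05 (log2). The array reads 8 samples, and this number limits the precision.

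Genes were named from the annotation of the platform, and only from probe sets with 1 symbol. The members and lists were chosen with earlier results of these data known. Rank products were computed in Python 3.11.15 (numpy 2.4.6, pandas 2.3.3) over all probe sets and the 16 HP minus control differences, the null coming from 1000 permutations within arrays, with calls at an FDR below 0.05. The limma fit (version 3.58.1, R 4.3.3, statmod 1.5.0, with trend and robust estimation) ran over the 4155 spanning probe sets, with Benjamini-Hochberg adjustment, two-sided. SE and 95% intervals are those of limma. Rank products and the limma fit were run on simulated data with known changes. For rank products all simulated probe sets had the same spread, unlike the deposited values. That run therefore does not check the rank products calls given here. Figures were drawn with matplotlib 3.10.9. The sinusoidal endothelial and Kupffer cell lists share Fcgr2b.

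Values in each rat were to be given for members called by rank products, past an unadjusted limma p of 0.05 or without overlap, and otherwise for the member of a role with the largest difference. Genes of the wider lists were to be named where called or past that p. Ctss, Cd63, Gabarapl1, Atp6v1b2 and the genes given by difference alone were added after their values were seen. Alternatives were quantile normalization, centring each array on its spanning probe sets, other span filters, leaving out the dimmest 25% of probe sets, ranking only spanning probe sets, array weights, plain empirical Bayes, a block for the replicate number, averaging a gene's probe sets, and leaving out each rat in turn.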

Additional observations from a re-analysis of the deposited data

How the results depend on the processing

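No called difference of a gene changed direction under the settings tried. Rank products called 0 lysosomal members higher and 0 lower when only spanning probe sets were ranked, and 1 lower (Atp6v1a) when the dimmest 25% were left out. At an unadjusted limma p, lysosomal members higher numbered 1 in place of 2 with plain empirical Bayes and with a span of at least 0.2, while array weights gave 3 higher (Lamp2, Ctsl and Cd63) and 1 lower (Atp6v1a). Autophagy members lower numbered 0 in place of 1 with arrays centred on spanning probe sets, plain empirical Bayes, quantile normalization and a span of at least 0.2. The cause was not tested. Leaving out each rat gave 0 to 3 lysosomal members called higher by rank products, 0 to 2 lower, and 0 to 1 autophagy members lower; the 1 came without HP rat 3. By limma at an unadjusted p it gave 1 to 3 lysosomal members higher, 1 to 2 lower and 0 to 1 autophagy members lower. On leaving out each rat, the median difference ran from -0.01 to 0.03 in lysosomal and from -0.09 to 0.01 in autophagy members; averaging the spanning probe sets of a gene gave 0.05 in autophagy members, against -0.03, and 0.01 in lysosomal members. Deviations from the diet mean correlated between same-numbered rats with an r of 0.48, 0.03, -0.12 and -0.20. Between differently numbered rats r ran from -0.48 (HP rat 4 and control rat 1) to 0.51 (HP rat 4 and control rat 3). The labels state no pairing, and so few values cannot exclude it. With the replicate number as a block, lysosomal members higher at an unadjusted limma p numbered 1, with 0 members at an adjusted p below 0.05. Probe sets with a span below 0.05 were not compared, which limits what can be said of the 21 members named above.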
